A study of Mus musculus with 8 samples.

Results

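T-lineage transcription factors were examined through H3K9ac, an acetyl mark on histone H3 found at active promoters and enhancers, in BM cells from *NUP98-HOXD13-tg* animals. The 9 genes were *Bcl11b*, *Tcf7*, *Lef1*, *Gata3*, *Tox*, *Ets1*, *Satb1*, *Runx3* and *Notch1*, out of 21951 protein-coding genes of mm10 (GENCODE M21). They were taken as a named family, with earlier results of these data known. A promoter reached 1 kb to either side of each annotated TSS of the gene, and a locus was the gene body plus 50 kb on each side. A distal site was a stretch of merged peaks of the 6 lists that did not reach within 1 kb of the TSS of any gene. All 9 genes had a promoter peak in at least 1 library, as did 12903 genes in all. The 9 loci held 129 of 64462 merged sites, and 103 of 44272 distal sites.

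The study asked how curcumin, a plant polyphenol that inhibits histone acetyltransferases, acts on chromatin of mice that differ in *GFI1*, a zinc finger repressor of blood cell genes. All mice were C57BL/6 and carried the *NUP98-HOXD13* fusion, a model of myelodysplastic syndrome. They carried human *GFI1-36S* (the common form), *GFI1-36N* (a variant with asparagine in place of serine) or *GFI1-KD* (reduced expression), and were given vehicle or weekly injections of curcumin at 20 mg/kg. Each of the 6 genotype and treatment groups had 1 library, so no difference below has a replicate check and none is read from a test. The labels do not give the number, age or disease stage of the mice behind a library. The input and IgG samples have no peak list.

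The labels and the libraries did not match in every respect. Both *GFI1-36S* lists are named for the other treatment than the one their labels give. Grouping here is by label, and "the library labelled *GFI1-36S* curcumin" is written for this reason. By its list name, the *GFI1-36N* vehicle library came from heterozygous and the *-36N* curcumin library from homozygous animals, a difference not found in the labels. Chromosome Y held 3 peaks in the library labelled *GFI1-36S* curcumin and none in the other 5, so sex and treatment cannot be told apart. Its list was also the shortest, with 20354 peaks against 30784 to 49213, and 33.5% of them were distal against 50.8% to 62.3%. The median number of fragments at a peak summit was 35.0 in this library and 24.0 to 36.0 in the others.

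T cells arise when a progenitor that reaches the thymus receives a Notch signal. Notch1 at the cell surface starts the program, TCF-1 (*Tcf7*) and GATA3 carry it on, and BCL11B closes the other blood cell fates. LEF1, TOX, RUNX3, ETS1 and SATB1 then act in the maturing cell, while the factors of the progenitor, such as *Spi1* and *Lmo2*, are shut off. In BM most cells are myeloid, erythroid or B-lineage cells and few are T cells. The sample titles and the paper's methods name BM cells, while the title of the paper's ChIP figure names c-kit positive cells. The titles give no sorting, so fewer cells of a type and less acetylation per cell cannot be told apart in anything below.

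Promoters were compared by rank, which placed the strongest promoter peak of a gene by fold enrichment among those of all genes in the same library, from 0 for no peak to 100 for the strongest. In the library labelled *GFI1-36S* curcumin, 7 of the 9 promoters ranked higher than in all other 5 libraries, against 15.7% of all genes with a promoter peak. The 7 were *Tcf7*, *Lef1*, *Gata3*, *Bcl11b*, *Tox*, *Ets1* and *Satb1*. One, *Notch1*, ranked lower than in all other 5, against 44.3% of all genes. *Runx3* lay among the others. A lead of at least 20 rank points over all other 5 was found for 5 genes (*Tcf7*, *Gata3*, *Bcl11b*, *Tox* and *Ets1*), against 1.95% of all genes. *Notch1* was at least 20 points below all other 5, as were 8.83% of all genes. The median rank of the 9 genes was 54.6 in this library and 4.60 to 9.16 in the others, whereas the median over all 12903 genes was 34.7 against 43.4 to 46.8. In all, 5 of the genes, *Tcf7*, *Lef1*, *Gata3*, *Bcl11b* and *Tox*, also had the widest promoter peak there (2.81% of all genes did) and the highest fold enrichment itself (2.80% of all genes). For *Ets1* and *Satb1* the fold enrichment was not the highest, and *Notch1*, *Runx3* and *Satb1* had their lowest fold enrichment in this library, as did 74.4% of all genes.

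**Figure D1:**
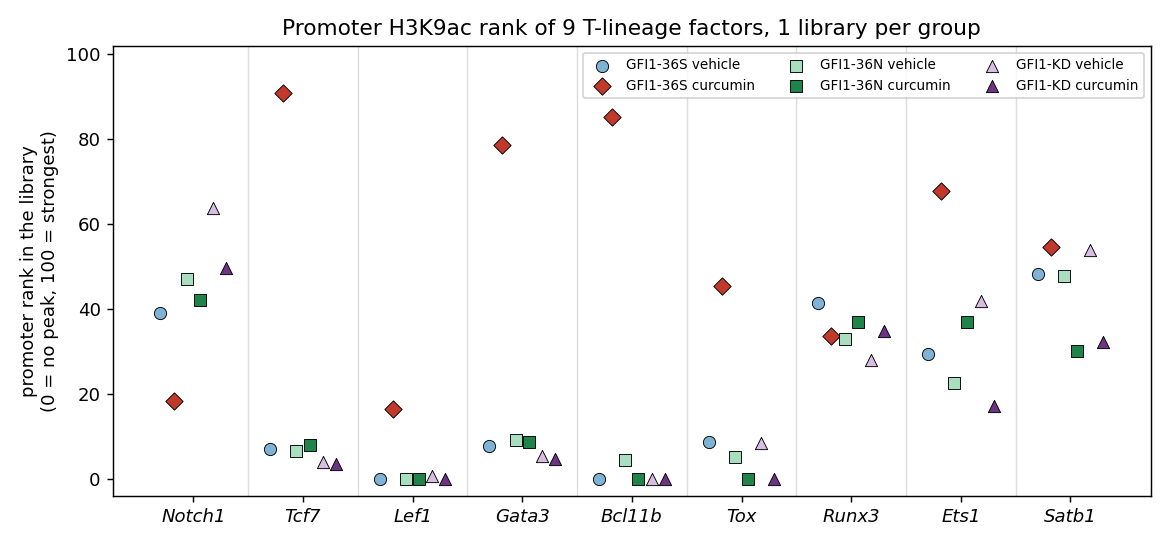
Promoter rank (0 to 100, vertical axis) of the 9 genes in each of the 6 libraries, 1 point per library. The red diamonds of the library labelled GFI1-36S curcumin stand at 90.9 for *Tcf7*, 85.2 for *Bcl11b* and 78.6 for *Gata3*, where every other point is at 9.16 or below, and at 18.2 for *Notch1*, below every other point.

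*Notch1*, the receptor that opens the T-cell program, was acetylated in all 6 libraries. Its peak lay 12.8 kb inside the gene at an internal pair of TSSs (chr2:26501773-26504656 in the *GFI1-36S* vehicle library), and no library had a peak at the most upstream TSS. Values of the other 5 libraries are given here and below in the order *GFI1-36S* vehicle, *-36N* vehicle, *-36N* curcumin, *-KD* vehicle and *-KD* curcumin. The *Notch1* rank was 18.2 in the library labelled *GFI1-36S* curcumin and 39.0, 47.0, 42.1, 63.9 and 49.6 in the others. The summit held 40 fragments (28.6 to 54.5, exact 95% Poisson interval for counting error) against 100, 115, 107, 189 and 114. Thus *Notch1* was lowest in this library, as were 44.3% of all genes by rank and 74.4% by fold enrichment. It was highest with *GFI1-KD* vehicle, where 24.0% of all genes had their highest rank. The interval did not reach the count of any other library. Fragments are not scaled for depth, and the share of all genes with such a gap was not counted, so nothing is read from it. Of 20 distal sites at *Notch1*, 1 had a peak in this library and 9 to 16 had one in each of the others. Of the 20, 7 were present in all other 5 and missing from it. The strongest of these, in an intron, had a fold enrichment of 16.4 with *GFI1-KD* vehicle, and the 201 bases around that summit are shown because this stretch was marked in 5 of 6 libraries. Capitals mark 1 of 7 short motifs searched on both strands, here CTTTGA, the core letters of TCF-1 and LEF1 sites, read on the minus strand.
*Notch1*, chr2:26475577-26475777, plus strand, mm10: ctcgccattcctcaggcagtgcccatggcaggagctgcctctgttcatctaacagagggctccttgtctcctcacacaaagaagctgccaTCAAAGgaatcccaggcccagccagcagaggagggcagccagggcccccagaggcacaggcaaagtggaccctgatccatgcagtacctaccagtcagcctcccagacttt

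*Tcf7* encodes TCF-1, which Notch switches on in early thymic progenitors. Its promoter rank was 90.9 in the library labelled *GFI1-36S* curcumin and 7.003, 6.50, 7.99, 4.02 and 3.38 in the others. In that library a single peak covered 9148 bp (chr11:52274227-52283374) from just before the TSS into the gene, wider than 99.99% of the peaks of its list on the rank scale, while the peaks of the other 5 were 406 to 696 bp wide. The summit held 129 fragments (107.7 to 153.3) against 27, 29, 26, 27 and 23. The other 5 libraries thus had a weak narrow peak at *Tcf7*, and this one had a strong broad domain. Of 16 distal sites, 10 had a peak in this library alone, 5 of them upstream and 5 in introns, at −50.08 to −3.99 kb and 9.10 to 16.8 kb from the most upstream TSS (negative is upstream). Their fold enrichment was 3.21 to 5.88, with 17 to 32 fragments at the summit, so each is far weaker than the promoter. The second strongest of them lay at −16.5 kb. Its 201 bases hold GAGGAAG (a PU.1 core) and CAGCTG (an E protein site) on the plus strand and CTTTGA on the minus strand.
*Tcf7*, chr11:52299410-52299610, plus strand, mm10: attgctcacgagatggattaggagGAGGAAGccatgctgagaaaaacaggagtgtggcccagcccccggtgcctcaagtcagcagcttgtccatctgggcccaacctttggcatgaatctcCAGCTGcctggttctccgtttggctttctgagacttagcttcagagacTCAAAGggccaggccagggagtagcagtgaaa

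*Lef1*, a relative of *Tcf7* with the same DNA-binding domain, was the weakest of the 5. It had a promoter peak of 1767 bp (chr3:131110652-131112418) in the library labelled *GFI1-36S* curcumin, at rank 16.4 with 38 fragments (26.9 to 52.2). One other library, *GFI1-KD* vehicle, had a peak, of 449 bp at rank 0.710 with 21 fragments (13.0 to 32.1). These 2 intervals overlap. No promoter peak was called at *Lef1* in the remaining 4, and 1 of 2 distal sites was found in this library alone.

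*Gata3*, a zinc finger factor needed for the first steps of T-cell development, had rank 78.6 in the library labelled *GFI1-36S* curcumin and 7.59, 9.16, 8.54, 5.26 and 4.60 in the others. The peak was 8430 bp wide (chr2:9871064-9879493) and spanned 3 groups of internal TSSs. The strongest promoter peak of each of the others was 351 to 1036 bp wide, at 1 internal TSS 11.4 kb inside the gene. With *GFI1-36N* curcumin, a separate peak (fold enrichment 4.15) also lay at the internal TSS 16.4 kb inside. The summit of the 8430 bp peak held 98 fragments (79.6 to 119.4) against 28, 34, 27, 29 and 25. At the most upstream TSSs of *Gata3*, fold enrichment was 8.37 in this library and 3.63 with *GFI1-36N* curcumin, and the other 4 had no peak. The locus had 1 distal site, found in this library alone.

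*Bcl11b*, the zinc finger factor of T-cell commitment, was the gene nearest to an on or off pattern. Its promoter peak in the library labelled *GFI1-36S* curcumin was 4577 bp wide (chr12:107999555-108004131) at rank 85.2, with 108 fragments (88.6 to 130.4). *GFI1-36N* vehicle had a 251 bp peak at rank 4.44 with 26 fragments (17.0 to 38.1), and the remaining 4 libraries had none. All 16 distal sites of the locus, all in introns, had a peak in this library alone. They lay 5.35 to 82.7 kb into the gene, at 187 to 1343 bp in width and 2.83 to 6.23 in fold enrichment. No library had a distal peak at *Bcl11b* otherwise, so 10102 bases of the locus lay under peaks here and 251 or 0 in the others. The strongest of these sites is shown with the 250 bases before the most upstream annotated start, which lie under the promoter peak. Neither stretch holds any of the 7 motifs, which says only that these letters are not in these windows.
*Bcl11b* intron, chr12:107998153-107998353, plus strand, mm10: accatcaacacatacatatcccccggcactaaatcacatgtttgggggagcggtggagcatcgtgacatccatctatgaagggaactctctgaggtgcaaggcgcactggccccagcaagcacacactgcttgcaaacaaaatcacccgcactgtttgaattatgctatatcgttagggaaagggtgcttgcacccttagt
*Bcl11b* promoter, chr12:108003603-108003852, minus strand, mm10: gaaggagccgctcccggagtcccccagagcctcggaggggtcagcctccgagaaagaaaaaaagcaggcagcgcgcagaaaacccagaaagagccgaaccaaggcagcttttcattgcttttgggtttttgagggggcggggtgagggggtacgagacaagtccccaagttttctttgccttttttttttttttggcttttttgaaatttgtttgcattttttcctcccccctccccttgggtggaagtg

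*Tox*, an HMG-box factor of developing T cells, had rank 45.4 in the library labelled *GFI1-36S* curcumin. The ranks were 8.61, 5.15 and 8.45 with *GFI1-36S* vehicle, *-36N* vehicle and *-KD* vehicle, and neither *-36N* nor *-KD* curcumin had a peak. The peak of 2158 bp (chr4:6989135-6991292) held 65 fragments at its summit (50.2 to 82.9) against 30, 27 and 36. Of 4 distal sites at *Tox*, 3 were in this library alone. The strongest of these by fold enrichment, 4.99, is a site 88.8 kb into the gene, tied with another at 2.76 kb, and its 201 bases hold none of the motifs.
*Tox*, chr4:6902662-6902862, plus strand, mm10: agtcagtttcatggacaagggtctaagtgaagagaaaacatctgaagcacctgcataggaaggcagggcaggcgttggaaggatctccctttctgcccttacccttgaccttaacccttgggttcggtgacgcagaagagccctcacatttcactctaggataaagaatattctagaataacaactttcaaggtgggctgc

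**Figure D2:**
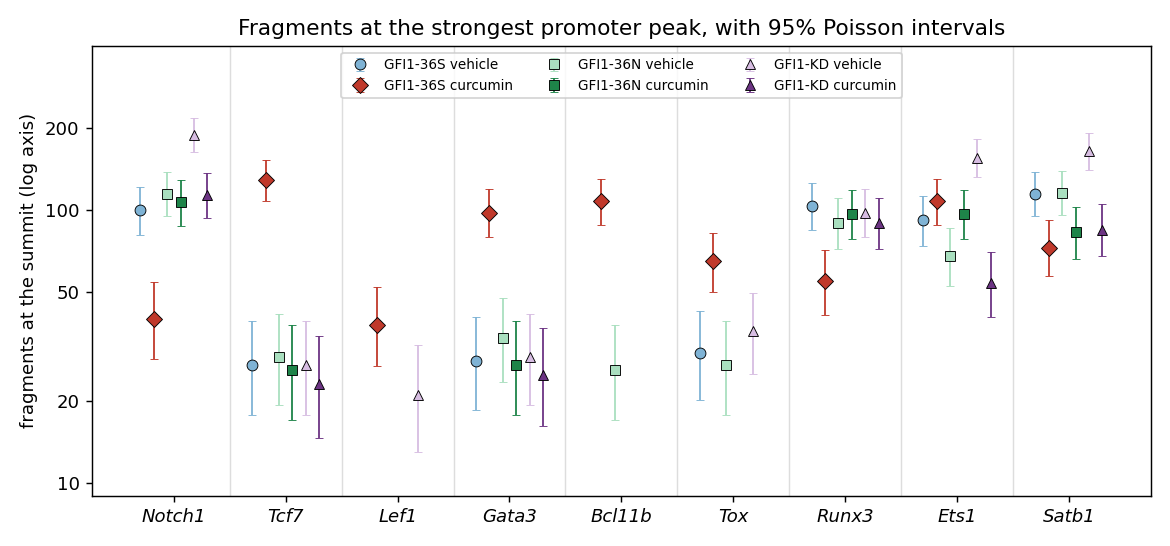
Fragments at the summit of the strongest promoter peak (log axis) of each gene and library, with exact 95% Poisson intervals as bars, and no point where no peak was called. The library labelled GFI1-36S curcumin stands above all others for *Tcf7*, *Gata3*, *Bcl11b* and *Tox* without overlap of the intervals. It stands below all others for *Notch1*, *Runx3* and *Satb1*, for *Satb1* with overlapping intervals. Fragments are not scaled for depth, and the share of all genes without overlap was not counted. Of all genes, 74.4% had their lowest promoter fold enrichment in this library and 2.80% their highest.

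*Ets1*, the founder of the ETS family and a factor of both T and B cells, was acetylated in all 6 libraries at an internal group of TSSs 59.8 kb into the gene (chr9:32696017-32698426 in the library labelled *GFI1-36S* curcumin). Its rank was 67.7 there and 29.4, 22.6, 36.9, 41.8 and 17.1 in the others. The fragments at the summit did not follow this order, with 108 (88.6 to 130.4) against 92, 68, 97, 156 and 54, so that *GFI1-KD* vehicle had more. The distal sites set this locus apart more than its promoter did. Of 25 distal sites, 21 had a peak in this library and 2 to 6 in each of the others, and 17 were in this library alone. Of the 17, 3 lay together at −28.7 to −27.7 kb, and 14 lay in introns downstream of the acetylated promoter, 67.3 to 108.6 kb from the upstream TSS. The strongest of the 17 has TGTGGT (a RUNX core) and TGGGAA (an RBPJ core) on the plus strand and GAGGAAG on the minus strand.
*Ets1*, chr9:32707177-32707377, plus strand, mm10: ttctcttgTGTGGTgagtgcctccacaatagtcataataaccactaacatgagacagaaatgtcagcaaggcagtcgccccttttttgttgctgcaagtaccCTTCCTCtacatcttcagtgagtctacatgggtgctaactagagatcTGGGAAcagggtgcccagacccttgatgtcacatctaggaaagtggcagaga

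*Satb1*, which folds chromatin into loops in thymocytes, had rank 54.6 in the library labelled *GFI1-36S* curcumin and 48.2, 47.7, 30.2, 54.0 and 32.1 in the others, a lead of 0.609 rank points over *GFI1-KD* vehicle. Its summit held 73 fragments (57.2 to 91.8) against 115, 116, 83, 165 and 85, and its fold enrichment of 13.2 was the lowest of the 6. The rank and the count therefore point in different directions for *Satb1*, and its locus had no distal peak in this library. *Runx3*, a RUNX factor that directs cytotoxic T cells, had rank 33.5 against 41.4, 33.0, 36.9, 28.0 and 34.9 at its inner TSSs (chr4:135152220-135154255). Its summit held 55 fragments (41.4 to 71.6) against 104, 90, 97, 98 and 90. *Runx3* has 2 groups of TSSs 31.8 kb apart, and the outer one carried a weak peak of 3.58 to 4.89 in fold enrichment in the other 5 libraries and none in this one. Of 17 distal sites at *Runx3*, 1 had a peak in this library and 6 to 11 in each of the others, and 4 were missing from it alone.

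**Figure D3:**
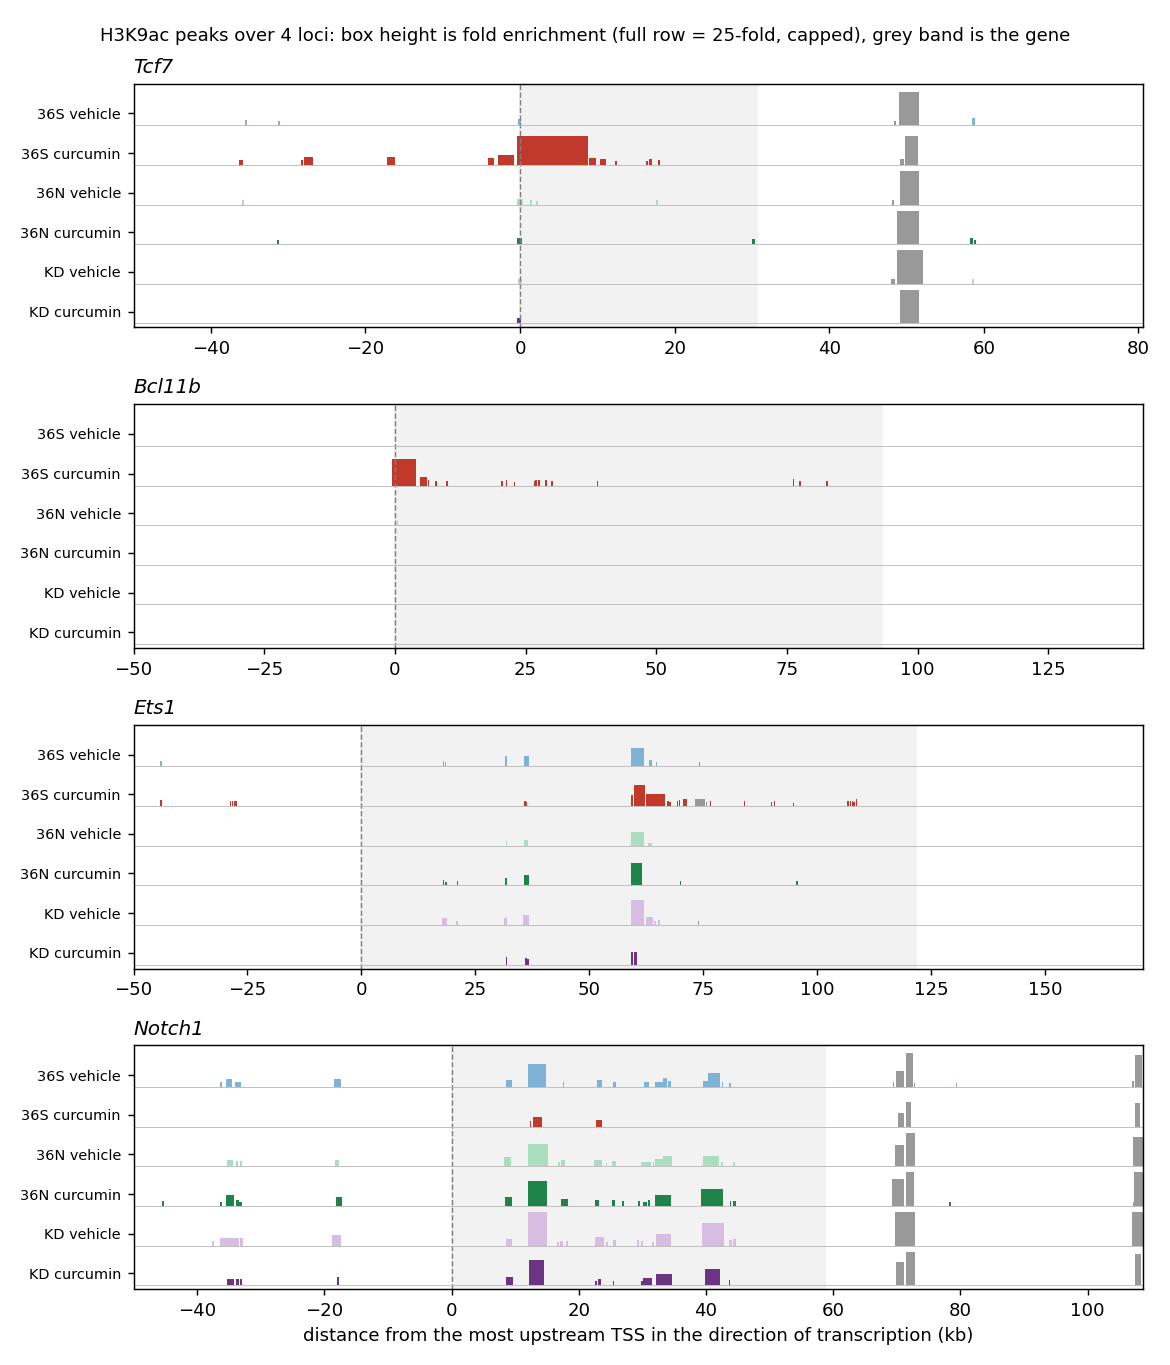
Peaks of the 6 libraries over *Tcf7*, *Bcl11b*, *Ets1* and *Notch1*, by distance in kb from the most upstream TSS in the direction of transcription. Box width is the peak (at least 0.25 kb as drawn), box height its fold enrichment up to 25, the grey band the gene and grey boxes peaks at promoters of other genes. The red peaks of the library labelled GFI1-36S curcumin are scattered over *Tcf7*, *Bcl11b* and the 3′ part of *Ets1*, most of them narrow and low. They leave most of *Notch1* empty. The 251 bp peak of *Bcl11b* with GFI1-36N vehicle is barely visible.

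Over the 9 loci, 48 of 103 distal sites (46.6%) had a peak in the library labelled *GFI1-36S* curcumin alone, against 4.97% of all distal sites. When every list was held to its 20354 strongest peaks, the count was 52 of 71 against 20.1%. Of the 56 sites that this list itself held in the loci, 85.7% were found in no other library, against 41.6% of its distal sites over the genome. Sites in 1 locus share a gene, so they are not independent. They came from *Ets1* (17), *Bcl11b* (16), *Tcf7* (10), *Tox* (3), *Lef1* (1) and *Gata3* (1), and *Notch1*, *Runx3* and *Satb1* had none. Of the 48, 40 lay in introns and 8 upstream. Their median width was 312 bp and their median fold enrichment 3.71, close to 297 bp and 3.73 over all 2202 sites of this kind. In turn, 12 sites (11.7%) were missing from this library alone, near the 12.1% of all distal sites, so nothing is read from that count. Of these, 7 were at *Notch1*, 4 at *Runx3* and 1 at *Ets1*.

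The bases under peaks gave the same split among the genes. The library labelled *GFI1-36S* curcumin had 0.443 times as many bases under peaks as the median of the others over the genome. At *Gata3* the ratio was 13.6, at *Tox* 4.59, at *Tcf7* 4.48, at *Ets1* 3.07 and at *Lef1* 2.30. *Satb1* stood at 1.05, whereas *Runx3* (0.264) and *Notch1* (0.244) were below the ratio of the genome. At *Bcl11b* the median of the others was 0 and no ratio is given. The median over the 9 genes was 3.07 with 50 kb of flank and 1.72 with 100 kb.

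**Figure D4:**
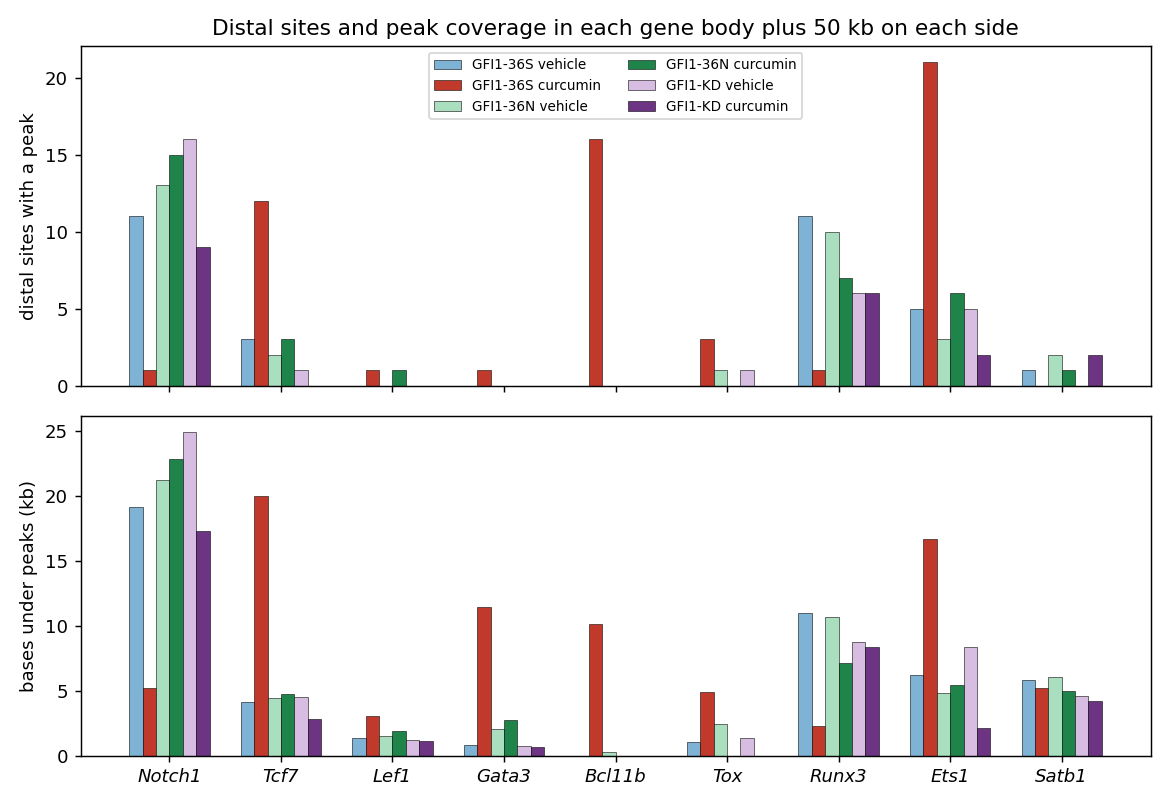
Number of distal sites with a peak (upper panel) and kb under peaks (lower panel) in the gene body plus 50 kb on each side, 1 bar per library. The library labelled GFI1-36S curcumin has the tallest bar at *Tcf7*, *Gata3*, *Bcl11b*, *Tox* and *Ets1* in both panels, and the shortest at *Notch1* and *Runx3*.

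The 48 sites were searched for short motifs in 501 bases around the summit, on both strands. Their shares are set beside those of all distal sites and of the 2202 distal sites found in this library alone over the genome. The TCF-1 and LEF1 motif was in 22.9% of the 48 sites, 31.1% of all and 32.1% of the 2202. The RUNX motif was in 35.4%, 37.6% and 35.6%, the E protein motif in 31.2%, 27.7% and 33.1%, and the RBPJ motif in 37.5%, 39.8% and 39.3%. An ETS motif, spelled CAGGAAG, was in 29.2%, 27.6% and 27.6%. The PU.1 motif, which differs from it in the first letter, was in 14.6%, 24.6% and 19.7%. The GATA motif, spelled AGATAA, was in 2 of the 48 sites (4.17%), in 11047 of the 44272 and in 462 of the 2202. The shares are descriptions over sites that lie in 6 loci. None of the 48 sites was more than 50% repeat sequence, as 5.25% of all distal sites were. The median GC content was 50.6% against 47.3%.

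The study's own contrast, curcumin against vehicle, differed by genotype. With *GFI1-36S* as labelled, 7 of 9 genes had a higher rank with curcumin, against 30.7% of all genes, and the change ran from −20.8 at *Notch1* to 85.2 at *Bcl11b*. With *GFI1-36N*, 3 of the 8 genes with a peak in the pair were higher (60.6% of all genes), and the change lay between −17.5 at *Satb1* and 14.3 at *Ets1*. With *GFI1-KD*, 1 of 8 was higher (37.0% of all genes), *Runx3* by 6.88, and *Ets1* changed by −24.7 and *Satb1* by −21.9. Among the 9 genes, changes of more than 30 rank points were seen at *Tcf7*, *Gata3*, *Bcl11b*, *Tox* and *Ets1*, in the *GFI1-36S* pair only. This cut was not among the planned comparisons. The share of all genes with such a change was not counted, so nothing is read from the number of genes. Over all genes the change ran from −98.84 to 91.29 with *GFI1-36S*. It ran from −71.45 to 93.41 with *GFI1-36N* and from −92.5 to 93.23 with *GFI1-KD*, so every pair held large changes. If the treatments of this pair are exchanged, as the list names have them, 2 of 9 genes are higher with curcumin.

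Related genes were counted in the same way, and their shares are to be read against the 15.7% of all genes that ranked higher and the 44.3% that ranked lower. Of 37 other T-cell transcription factors, 36 had a promoter peak somewhere, 13 (36.1%) ranked higher in the library labelled *GFI1-36S* curcumin than in all others and 12 (33.3%) ranked lower, among them *Zbtb16*, *Bach2*, *Prdm1* and *Maf*, whose peak was missing from it alone (10.4% of all genes). Of 17 paralogs of the 9 genes, 16 had a peak, 2 (12.5%) ranked higher and 9 (56.25%) lower, near the shares of all genes. *Tox2* had a peak in this library alone (0.798% of all genes), at rank 28.0, and *Bcl11a*, *Tcf7l2* and *Gata2* had one in all the others and none here. A peak in all the others and none here was found for 10.4% of all genes. *Bcl11b*, *Tcf7* and *Gata3*, the T-lineage relatives of these 3 paralogs, ranked highest in this library. The paralogs did not all go the other way, as *Tcf7l1*, another relative of *Tcf7*, also ranked highest here (29.1 against 7.05 to 13.4). Of 35 Notch pathway genes, 32 had a peak, 17 (53.1%) ranked lower, near the share of all genes, and 1 (3.13%) higher. *Hes5*, a Notch target, was missing from it alone.

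Progenitor genes that T-cell commitment shuts off mostly ranked lower. Of 14, 13 (92.9%) ranked lower, against 44.3% of all genes, and 11 were missing from this library alone, as were 10.4% of all genes. These were *Tal1*, *Lyl1*, *Lmo2*, *Bcl11a*, *Hhex*, *Erg*, *Gfi1b*, *Mef2c*, *Kit*, *Gata2* and *Cebpa*. *Lmo2*, an adaptor of the stem cell complex, ranked 91.7 to 98.8 in the other 5 libraries and had no peak in this one. *Spi1*, which encodes PU.1, ranked 9.83 against 89.7 to 99.0.

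Markers of cell types moved with these results. Over all protein-coding genes, 45.25% had a promoter peak in the library labelled *GFI1-36S* curcumin and 51.75% to 55.23% in the others. Of 15 T-cell markers, 14 had one in this library and 4 to 8 in the others. Of the T-cell markers with a peak somewhere, 12 (85.7%) ranked higher than in all others, against 15.7% of all genes. *Cd3e*, *Cd3g*, *Cd4*, *Cd8b1* and *Cd2* had a peak there alone, as did 0.798% of all genes. *Cd8a* had none in any library. Of 14 neutrophil markers it had 1 against 8 to 13, of 10 monocyte and macrophage markers 1 against 9 to 10, of 10 stem and progenitor markers 1 against 9 to 10, and of 12 erythroid markers 2 against 4 to 12. Of 10 B-cell markers it had 1 against 2 to 5, and of 8 NK-cell markers 1 (*Gzma*) against 1 to 4. This library, labelled as BM cells, thus lacked peaks at most defining myeloid genes, among them *Elane*, *Mpo*, *Csf1r* and *Lyz2*. The part of these markers in the results on the T-lineage factors was not tested.

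**Figure D5:**
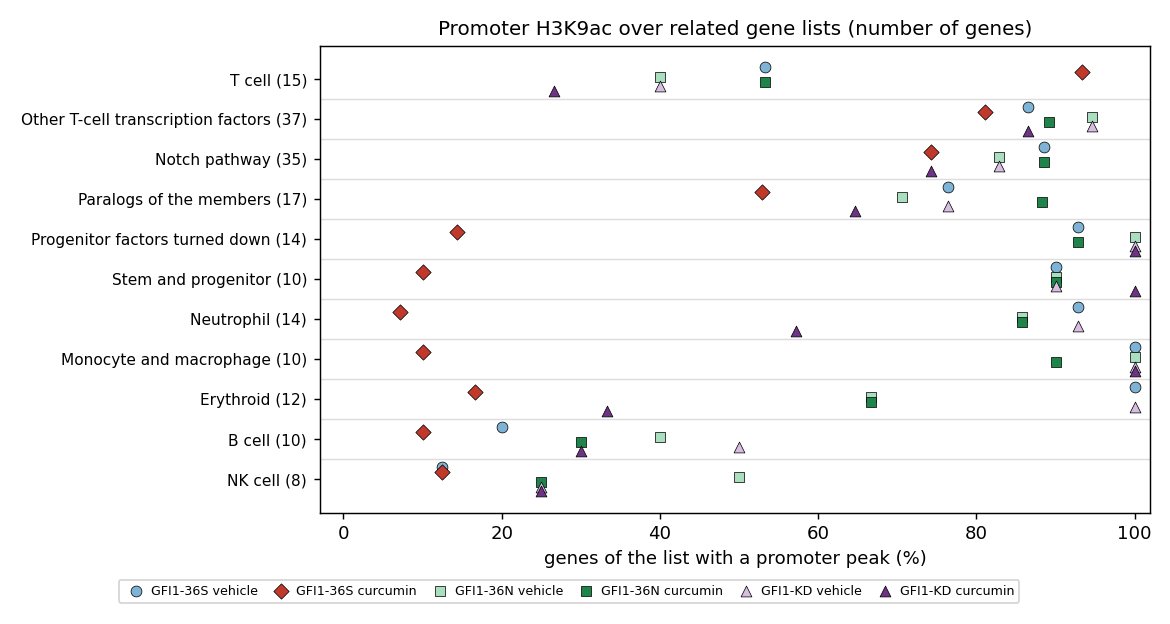
Share of the genes of each list with a promoter peak (horizontal axis, %), 1 point per library, with the number of genes in brackets. The library labelled GFI1-36S curcumin lies to the right of all others for the T-cell markers (14 of 15) and far to the left for the progenitor factors (2 of 14), neutrophil (1 of 14) and monocyte markers (1 of 10).

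The genes nearest to each factor by their 6 promoter ranks (Euclidean distance, out of 12903 genes) were described. For *Tcf7* they were *Gata3* (distance 12.7), *Bcl11b* (13.3) and *Gpr25* (13.5). For *Bcl11b* they were *Gpr25* (7.55), *Zap70* (7.56) and *Xkr6* (8.86), and for *Gata3* *Tcf7* (12.7), *Zap70* (13.0) and *Trio* (14.4). *Zap70* encodes a kinase of the T-cell receptor. *Tox* was closest to *Tanc1* (9.20), *Prkcq* (11.6), a kinase of T-cell activation, and *Rasgrp1* (11.8), an activator of Ras in T cells. *Ets1* was closest to *Rgcc* (12.2), *Nt5dc2* (13.9) and *Plec* (16.8), *Lef1* to *Podnl1* and *Gm525* (0.710 each) and *Pde10a* (1.13), and *Notch1* to *Fut4* (8.31), *Kif1b* (10.6) and *Snapc5* (11.1). *Runx3* was closest to *Cul7* (6.00), *Qtrt1* (6.23) and *Chst14* (6.80), and *Satb1* to *Psmd2* (10.9), *Parp16* (11.2) and *Lsm11* (13.9). The likeness rests on 6 values, most of them set by the one library that stands apart.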

How the data were processed

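H3K9ac ChIP-seq libraries of BM cells were used, 1 for each genotype and treatment. The authors trimmed reads with Trim Galore, aligned them with BWA-MEM to mm10, removed black-listed regions and called narrow peaks per library with MACS2. Versions, the control used and the threshold are not given in the sources used here. The deposited lists hold a display score, the fold enrichment at the summit as a ratio, −log10 p and −log10 q as MACS2 wrote them, and the summit offset. The lists give no depth. Lists held 20354 to 49213 peaks with −log10 q of at least 1.31. Fold enrichment was ranked within a list because it is not normalised between libraries.

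TSSs were those of GENCODE M21. Fragments at a summit were recovered from fold enrichment and p for 93.5% to 99.8% of peaks, with a tolerance of 0.04, and intervals cover counting error only. Scripts ran in Python 3.11.15 with pandas 2.3.3 and scipy 1.17.1, and were checked on simulated data. Sequences came from RefSeq GRCm38.p6 (the mm10 assembly), where stretches with under 10% repeat sequence and no exon were chosen.

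The 9 genes, the gene lists and the comparisons were chosen with earlier results of these data known. Genes of the other lists were named where the promoter peak was found in the library labelled *GFI1-36S* curcumin alone or in all other 5, and the 3 nearest genes were given. One gene that met this rule is not reported here by name. *Spi1*, *Cd8a* and *Tcf7l1* were picked after their values were seen. In all, 12 alternative settings were run.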

Additional observations from a re-analysis of the deposited data

Results flagged for a closer look

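*Ets1* changed in opposite directions with curcumin in the 2 genotypes with lower or variant *GFI1*. Its promoter rank was 14.29 higher with curcumin in *GFI1-36N* mice and changed by −24.69 in *GFI1-KD* mice. It was picked out because both changes were at least 5 rank points with opposite signs, and no other of the 9 genes met this. The difference was not tested, since each value is a single pair of libraries. By the names of its lists the *GFI1-36N* pair differs in zygosity, which cannot be told apart from treatment.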

How the results depend on the processing

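Of 53 values recomputed under 12 alternatives, 47 stayed within 1.5 times the reported value, 5 moved further and 1 reversed. Keeping peaks with −log10 q of at least 5 left 26 of 57 distal sites in the library labelled *GFI1-36S* curcumin alone, against 4.89% of all distal sites. The count moved because fewer sites were kept. The same setting gave 3 genes with a higher rank under curcumin in *GFI1-KD* mice in place of 1. Keeping the top 20354 peaks of every list gave 7 of 71 distal sites missing from that library alone, near the 10.9% of all distal sites, and raised the share of all distal sites found in it alone from 4.97% to 20.1%. It also raised the share of all genes that ranked higher there to 21.3%. With 100 kb of flank, the median ratio of locus bases under peaks was 1.721. Comparing fold enrichment itself in place of its rank, an alternative chosen after seeing the data, gave 3 genes lower than in all others (*Notch1*, *Runx3* and *Satb1*) in place of 1, and 5 higher in place of 7. Exchanging the *GFI1-36S* treatments gave 2 genes higher with curcumin in place of 7, by construction. For the other moves the cause was not tested. The 7 genes with a higher rank and the 1 with a lower rank were the same under a stricter q, equal lists, a 3 kb window, summits inside the window, coding transcripts and ranks by −log10 p. No paired analysis was possible because the groups have 1 replicate number each and no result comes from a test, so no replicate block exists. Pairing by genotype instead gives 3 pairs of curcumin and vehicle, where an exact two-sided permutation test cannot go below p = 0.25. With the labels as given, *Notch1* alone of the 9 genes changed in 1 direction in all 3 pairs, with a lower rank with curcumin. If the *GFI1-36S* treatments are exchanged, *Notch1* is higher with curcumin in that pair. *Gata3*, *Tox* and *Satb1* are then lower in all 3 pairs and *Runx3* is higher in all 3. Some of these changes are small, as *Gata3* changed by −0.621 with *GFI1-36N* and −0.66 with *GFI1-KD*. The share of all genes with 1 direction in all 3 pairs was not counted under either labelling, so nothing is read from these directions. No replicate could be left out, because each group has 1 library. Weak sites limit the counts: the 48 distal sites of the library labelled *GFI1-36S* curcumin held 15 to 34 fragments at the summit, so a site in 1 list alone can be just under the threshold in another.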

Other observations

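Distal sites were also counted from 50 kb to 1 Mb on each side of the genes, a range chosen after seeing the data. Downstream of *Bcl11b*, a long stretch with few genes, 4 distal sites were found and all 4 had a peak in the library labelled *GFI1-36S* curcumin. Of these, 3 had none elsewhere, at 855.8, 878.2 and 956.7 kb from the TSS, with fold enrichment of 3.56, 3.74 and 3.56. The fourth, at 357.6 kb, was shared with *GFI1-36S* vehicle. A T-cell enhancer far downstream of *Bcl11b* is known, and whether these peaks lie in it was not tested. Upstream of *Gata3*, 5 of 17 distal sites (29.4%) were in this library alone, and 1 of 1 downstream. Upstream of *Bcl11b* itself 1 of 30 (3.33%) was. At *Ets1* 4 of 30 upstream sites (13.3%) and 0 of 1 downstream were, at *Tcf7* 2 of 17 upstream and 3 of 57 downstream, at *Lef1* 2 of 9 upstream and 0 of 29 downstream, and at *Tox* 0 of 1 upstream and 0 of 11 downstream. At *Runx3* 4 of 73 upstream and 6 of 54 downstream (11.1%) were, at *Satb1* 1 of 3 upstream and 0 of 17 downstream, and at *Notch1* 2 of 57 upstream and 0 of 20 downstream. The share over all distal sites was 4.97%.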
